A study of Mus musculus with 12 samples.

Results

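Chemokines are small secreted proteins that direct the movement of leukocytes, and their receptors are the G protein-coupled proteins through which cells sense them. The 42 genes described here are the 29 ligands and 13 receptors of the CC and CXC families, taken by their symbols (Ccl, Cxcl, Ccr or Cxcr and a number) in the array's probe annotation, out of 18193 genes with a probe set of 1 symbol. 2 symbols of this form were not taken, by the same rule, and probe sets that carry several symbols were left out. There were 16 CC and 13 CXC ligands, and 9 CC and 4 CXC receptors. Each gene was read by the probe set with the highest mean over all arrays.

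Transcript levels were measured in thymus, lung, heart and liver of p53-/- mice, which lack the tumour suppressor p53, of p66-/- mice, which lack the p66 isoform of the adaptor protein Shc1, and of wild-type (WT) mice. All mice were 2 months old and of the Sv/129 strain. The study asked which transcripts depend on p53, on p66 or on both in a tissue. Each of the 12 Affymetrix Mouse Genome arrays held an RNA pool of 4 mice, with 1 array for each tissue and genotype (p53KO, p66KO and WT in the plots). A difference between genotypes within 1 tissue therefore had no replicate and no test. Values are log2 levels from robust multi-array averaging (RMA), so that a difference of 1 is 2-fold. RMA gives no call of presence, and levels of different genes are not compared with each other, since each probe set binds with its own strength.

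CC and CXC ligands are named for the spacing of their first cysteines. Homeostatic ligands are made steadily and guide cells through lymphoid organs, whereas inflammatory ligands are induced by cytokines or microbial products and attract neutrophils, monocytes or effector lymphocytes. In the thymus, developing T cells (thymocytes) follow such cues: Cxcr4 and Ccr9 serve the entry and cortical residence of immature thymocytes, and Ccr7 the passage of selected cells to the medulla. The tissue levels below come from whole organs, so that fewer cells of a type and less RNA per cell cannot be told apart.

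The tissue labels fitted their defining markers, with Rag1 between 11.31 and 13.13 in thymus, Sftpc between 14.63 and 14.91 in lung, Myh6 between 14.46 and 14.57 in heart and Alb between 14.71 and 14.79 in liver. Some arrays also carried transcripts of another tissue. The 12 lung epithelium markers averaged 7.2 in p53-/-, 8.5 in p66-/- and 8.2 in WT thymus. Among them Scgb1a1 read 7.1, 13.2 and 11.9 on the same arrays. The 12 cardiomyocyte markers averaged 6.32 in p53-/-, 8.26 in p66-/- and 8.41 in WT thymus. On the lung arrays the cardiomyocyte markers averaged between 8.24 and 8.71. The 13 salivary gland markers averaged 5.05 in p53-/- thymus and 5.12 in p66-/- thymus but 13.90 in WT thymus, and all 13 were at least 2-fold lower on both knock-out arrays. The 14 hepatocyte markers averaged 7.04 in p53-/- lung, 9.33 in p66-/- lung and 10.28 in WT lung. The 12 thymocyte markers averaged 6.77 in p53-/- lung, 7.48 in p66-/- lung and 6.22 in WT lung. Shc1, read by a probe set not stated to lie in the deleted part, gives no check of the p66-/- label (9.20 in p66-/- thymus and 9.10 in WT thymus). The transcript of p53 itself is not reported.

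RefSeq promoter sequences (build GRCm38.p6) were matched for 29 of the 42 members. 5 are printed, each as the 250 bases before the transcription start, 5′ to 3′ on the gene's own strand. Cxcl9 and Cxcl10 are shown because both were called higher in thymus, the neighbouring genes Ccl6 and Ccl9 because both were lower on every knock-out array than on the WT array of the same tissue, and Cxcl15 because its level set lung apart. Capitals mark matches to 3 sets of letters on either strand: GAAANNGAAA, the form bound by interferon-activated factors, GGGNNNTTCC, a form bound by NF-kB, and TATAAA, the TATA box.
Cxcl9 (chr5:92328080-92328329, minus strand): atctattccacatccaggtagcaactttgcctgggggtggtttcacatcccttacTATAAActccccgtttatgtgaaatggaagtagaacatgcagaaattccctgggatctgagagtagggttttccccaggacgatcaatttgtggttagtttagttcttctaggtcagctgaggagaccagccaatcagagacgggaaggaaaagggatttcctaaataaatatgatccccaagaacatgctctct
Cxcl10 (chr5:92348890-92349139, minus strand): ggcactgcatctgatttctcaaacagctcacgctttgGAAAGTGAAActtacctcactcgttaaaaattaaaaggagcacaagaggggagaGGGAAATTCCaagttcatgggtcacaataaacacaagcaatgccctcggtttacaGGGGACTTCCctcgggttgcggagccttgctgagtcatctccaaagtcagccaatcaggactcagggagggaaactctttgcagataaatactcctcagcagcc
Ccl6 (chr11:83593088-83593337, minus strand): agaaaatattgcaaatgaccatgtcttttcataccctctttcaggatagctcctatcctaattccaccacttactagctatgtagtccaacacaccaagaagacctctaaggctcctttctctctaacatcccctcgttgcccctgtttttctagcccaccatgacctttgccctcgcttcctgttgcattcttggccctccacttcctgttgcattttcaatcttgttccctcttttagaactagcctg
Ccl9 (chr11:83578637-83578886, minus strand): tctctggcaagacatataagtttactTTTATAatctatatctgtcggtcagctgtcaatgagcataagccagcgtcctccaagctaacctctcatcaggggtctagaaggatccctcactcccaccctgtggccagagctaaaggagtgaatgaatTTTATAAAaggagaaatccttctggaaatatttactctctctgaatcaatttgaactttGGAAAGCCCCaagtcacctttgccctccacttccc
Cxcl15 (chr5:90794284-90794533, plus strand): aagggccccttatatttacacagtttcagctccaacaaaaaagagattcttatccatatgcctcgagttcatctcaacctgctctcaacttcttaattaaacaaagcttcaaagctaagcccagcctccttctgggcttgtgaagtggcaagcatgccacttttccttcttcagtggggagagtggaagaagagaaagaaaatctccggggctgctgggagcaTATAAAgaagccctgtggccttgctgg
Cxcl10 held GAAANNGAAA from base 213 upstream of its start and GGGNNNTTCC from bases 159 and 104. Cxcl9 held TATAAA from base 195, Cxcl15 from base 27, and Ccl9 from base 224 on the opposite strand and on both strands in 1 overlapping run from base 94. Ccl9 also held GGGNNNTTCC on the opposite strand, from base 35. Ccl6 held none of these letters in this window, which says nothing about the factors that bind there. GAAANNGAAA was found in 2 of the 29 members' windows (Cxcl10 and Cxcl14) and in 2.98% of all 32851 promoters, GGGNNNTTCC in 9 members and 4.65% of all, and TATAAA in 8 members and 12.4% of all. A match is a description of the letters and not a binding site.

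The 42 members ranged widely in how far they varied. The highest and the lowest array differed by less than 1 for 12 members and by more than 2 for 18. 15 members never reached the median level of all genes on their array, and 8 reached it on all 12 arrays. The strongest contrasts lay between tissues.

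**Figure D1:**
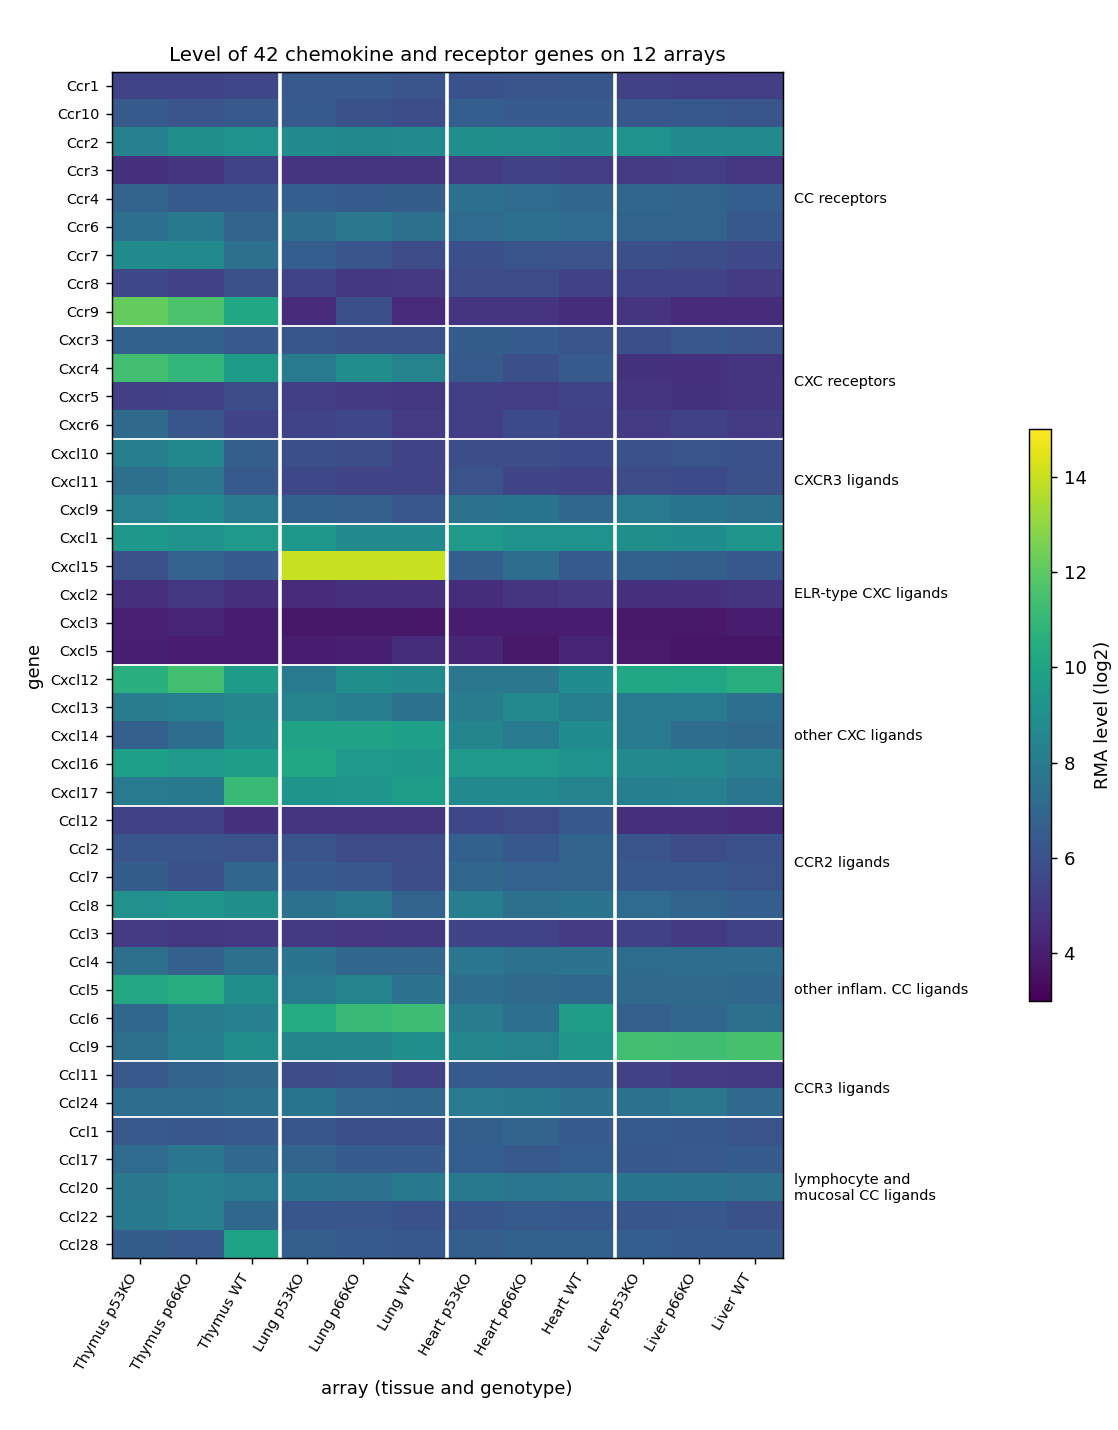
RMA level (log2, colour scale from 3 to 15) of the 42 members (rows, grouped by role) on the 12 arrays (columns, by tissue and genotype). Cxcl15 stands out on the 3 lung arrays (13.99 to 14.01), Ccr9 and Cxcr4 on the thymus arrays, and Ccl9 on the liver arrays, whereas Cxcl2, Cxcl3 and Cxcl5 are low throughout.

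Each tissue was compared with the mean of the other 3 by limma on all genes, with genotype as a block. A member was called at a Benjamini-Hochberg adjusted p under 0.05 and a difference of 1 or more. In thymus 11 members were higher and 3 lower, where 7.11% of all genes were called higher and 8.56% lower. Lung had 4 members higher and 3 lower (all genes, 9.25% and 3.97%), heart 1 higher and 5 lower (5.04% and 9.85%), and liver 2 higher and 10 lower (8.33% and 8.75%). In all 17 of 42 members were called in at least 1 tissue (14 ligands and 3 receptors), against 31.4% of all genes. Several lower calls follow from a high level in 1 other tissue, since the mean of the other 3 then includes it: Cxcl15 was called lower in thymus, heart and liver, and Ccr9 in lung, heart and liver. Without the WT thymus array, thymus again had 14 members called, but 2 calls were lost (Ccl11 and Ccl6) and 2 gained (Cxcr6, higher, and Cxcl14, lower). When the probe sets of a gene were averaged, 30 of the 39 calls were kept and 3 gained. Only 15 members had several probe sets, so that averaging could not change the differences of the others. Of the 39 calls, 27 held with any 1 array left out, and those that did not are named below.

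Thymus held the receptors that set it apart. Ccr9, the receptor of immature thymocytes and gut-homing lymphocytes, read 12.16, 11.60 and 10.14 on the p53-/-, p66-/- and WT thymus arrays, and between 4.45 and 5.92 on the 9 others. All 3 thymus arrays lay far above every other array, with the p66-/- lung array (5.92) the highest of the rest. The thymus mean was 11.30 against 4.77 in the other tissues, a difference of 6.53 ± 0.33 (SE, adjusted p = 9.28e-07), or 3.91 with the mean of its probe sets. Cxcr4, the receptor of Cxcl12, read 11.35, 10.94 and 9.54 on the thymus arrays. It followed a graded order over the tissues, with 7.94, 8.88 and 8.38 in lung, 6.39, 5.93 and 6.44 in heart, and 4.77, 4.71 and 4.78 in liver, each as p53-/-, p66-/- and WT. No tissue overlapped with its neighbour in this order. The difference was 4.14 ± 0.32 in thymus (adjusted p = 7.49e-06) and -3.67 ± 0.32 in liver (adjusted p = 7.01e-06). The lung difference of 1.19 ± 0.32 (adjusted p = 0.017) did not hold without the p66-/- lung array (0.95, adjusted p = 0.143) or without the WT lung array (1.06, adjusted p = 0.108).

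Ccr7, which guides mature thymocytes and dendritic cells, read 8.79, 8.68 and 7.45 on the p53-/-, p66-/- and WT thymus arrays, and between 5.63 and 6.57 elsewhere. Every thymus array was above every other array, and the difference was 2.31 ± 0.20 (SE, adjusted p = 1.6e-05). Ccr7 was also called lower in liver (-1.02), a call that was lost on leaving out any of 6 single arrays, with the smallest difference (-0.94) without the WT heart array. The other 10 receptors were called in no tissue. Among these, Ccr1, a receptor of myeloid cells, lay between 5.17 and 6.36, Ccr4, the receptor of Ccl17 and Ccl22, between 6.40 and 7.39, Ccr10, the receptor of Ccl28, between 5.82 and 6.60, and Cxcr3, the receptor of effector T cells, between 5.92 and 6.73.

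**Figure D2:**
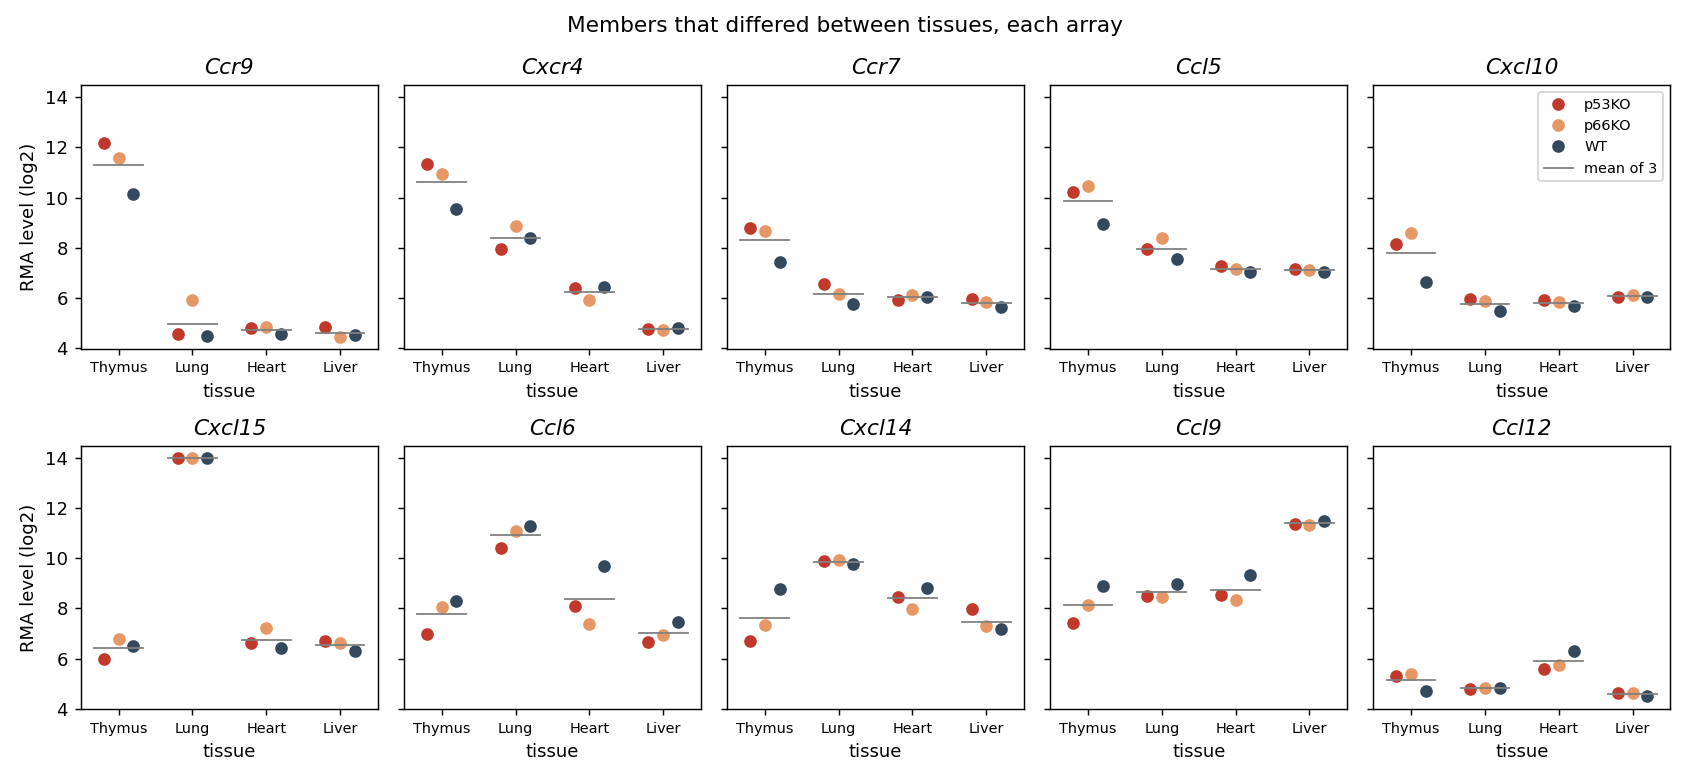
RMA level (log2) of 10 members on each array, by tissue, with p53KO, p66KO and WT as points from left to right and the mean of the 3 arrays as a line. Ccr9, Cxcr4, Ccr7, Ccl5 and Cxcl10 are highest in thymus, Cxcl15, Ccl6 and Cxcl14 in lung, Ccl9 in liver and Ccl12 in heart, where the WT array (6.31) is the highest of the 3.

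The ligands of Cxcr3 are Cxcl9, Cxcl10 and Cxcl11, which interferon induces and which attract activated T cells. All 3 were called higher in thymus. Cxcl10 read 8.13, 8.59 and 6.64 on the p53-/-, p66-/- and WT thymus arrays and between 5.49 and 6.11 on the others, a difference of 1.90 ± 0.26 (SE, adjusted p = 0.000242). Cxcl11 read 7.42, 7.77 and 6.38 in thymus and between 5.37 and 6.08 elsewhere (difference 1.53 ± 0.23, adjusted p = 0.000529). For both genes the WT thymus array lay below the knock-out thymus arrays and above the other tissues. Cxcl9 read 8.31, 8.83 and 7.97 in thymus and up to 7.97 in liver, so that the groups touched (difference 1.15 ± 0.14), and without the p66-/- thymus array the difference was 0.98. Cxcl9 was lowest in lung, at 6.73, 6.70 and 6.27 on the p53-/-, p66-/- and WT arrays (difference -1.25 ± 0.14, adjusted p = 6.32e-05). With the mean of its probe sets the Cxcl9 difference was 0.70 in thymus and -0.88 in lung. That of Cxcl11 was 0.99 in thymus, and all of these were below the threshold of 1. Cxcl10 has 1 probe set, so that averaging could not change its difference. Cxcr3 itself lay at 6.72, 6.73 and 6.34 on the thymus arrays.

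Among the neutrophil-attracting CXC ligands with an ELR motif, Cxcl15 set lung apart. Cxcl15, also called lungkine, is a product of airway epithelium. It read 14.00 on the p53-/-, 14.01 on the p66-/- and 13.99 on the WT lung array, and between 6.0 and 7.24 on the other 9 arrays. The 3 lung arrays agreed to within 0.02 and did not overlap with any other tissue (difference 7.42 ± 0.17, SE, adjusted p = 2.08e-09). Its second probe set read 13.61, 13.24 and 13.30 on the p53-/-, p66-/- and WT lung arrays, likewise far above the others (5.82 to 6.43). Cxcl2 (4.55 to 5.0), Cxcl3 (3.76 to 4.24) and Cxcl5 (3.68 to 4.56), which are induced in inflammation, were called in no tissue, nor was Cxcl1, by the probe set used here (8.75 to 9.45).

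Cxcl14, an epithelial chemokine, read 9.90, 9.93 and 9.77 on the p53-/-, p66-/- and WT lung arrays, above every other array (6.70 to 8.83). The lung difference was 2.03 ± 0.34 (SE, adjusted p = 0.00115). Its lower call in liver (-1.16) was lost without the WT liver array (-0.76), without the p66-/- liver array (adjusted p = 0.0896) or without the WT thymus array (-0.96). Cxcl16, the transmembrane ligand of Cxcr6, read 8.66, 8.71 and 8.22 on the p53-/-, p66-/- and WT liver arrays and between 9.13 and 10.16 elsewhere. Liver lay below every other array, but the difference of -1.03 ± 0.15 was only narrowly past the threshold and fell to between -0.95 and -1.0 on leaving out any of 5 single arrays.

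Cxcl12, the homeostatic ligand that retains progenitors in bone marrow and guides early thymocytes, depended on the probe set. The one used here read 10.61, 11.35 and 9.62 on the p53-/-, p66-/- and WT thymus arrays, 10.20, 10.10 and 10.51 in liver, 8.02, 8.96 and 8.72 in lung and 7.74, 7.76 and 8.84 in heart. By it, Cxcl12 was higher in thymus (1.54 ± 0.35, SE, adjusted p = 0.00589) and liver (1.20 ± 0.35) and lower in heart (-1.67 ± 0.35) and lung (-1.07 ± 0.35). The thymus call was lost without the p53-/- (adjusted p = 0.0508) or the p66-/- thymus array (adjusted p = 0.0561), and the liver call without the WT thymus (0.99), the p53-/- liver (adjusted p = 0.121) or the WT liver array (adjusted p = 0.115). The lung call was lost on leaving out any of 9 arrays. The second probe set read 8.27, 8.93 and 7.06 on the thymus arrays, against 9.52, 9.06 and 9.47 in heart and 9.93, 10.10 and 9.48 in lung, and so placed thymus lowest rather than highest. With the mean of all Cxcl12 probe sets no tissue was called: the thymus difference turned to -0.06 (adjusted p = 0.852), the heart difference was -0.38, the lung difference -0.17 and the liver difference 0.61.

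Inflammatory CC ligands divided among the tissues. Ccl5 (RANTES), made by T cells and other leukocytes, read 10.23, 10.45 and 8.95 on the p53-/-, p66-/- and WT thymus arrays and between 7.04 and 8.38 elsewhere. Thymus lay above every other array (difference 2.47 ± 0.21, SE, adjusted p = 1.34e-05). Its lower call in heart (-1.16) was lost without the p66-/- heart array (-0.99). Ccl3 (4.90 to 5.51) and Ccl4 (6.66 to 7.73), macrophage inflammatory proteins, were called in no tissue.

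Ccl6 and Ccl9 are mouse ligands of myeloid cells that lie next to each other on chromosome 11 (RefSeq GRCm38.p6), yet they marked different tissues. Ccl6 read 10.43, 11.07 and 11.27 on the p53-/-, p66-/- and WT lung arrays, above the other 9 (6.68 to 9.69), a difference of 3.19 ± 0.29 (SE, adjusted p = 1.79e-05). Ccl9 read 11.35, 11.34 and 11.50 on the liver arrays, above the other 9 (7.41 to 9.35), a difference of 2.89 ± 0.19 (adjusted p = 9.11e-07). In turn Ccl6 was lower in liver (-2.01 ± 0.29) and Ccl9 in thymus (-1.44 ± 0.19). The lower call of Ccl6 in thymus lay at the threshold (-1.0) and was lost on leaving out any of 7 single arrays, with -0.80 without the p53-/- thymus array.

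Ccl2, Ccl7, Ccl8 and Ccl12 were grouped here as monocyte-attracting ligands. Of these, Ccl8 was higher in thymus, at 9.06, 9.27 and 8.97 on the p53-/-, p66-/- and WT arrays against 6.61 to 8.13 elsewhere (difference 1.76 ± 0.19, SE, adjusted p = 4.71e-05). It was lower in liver (-1.17 ± 0.19). Ccl12 was the 1 member called higher in heart, at 5.59, 5.76 and 6.31, against 4.5 to 5.39 elsewhere. Heart did not overlap with the other tissues, but the difference of 1.04 ± 0.19 (adjusted p = 0.00166) was 0.75 without the WT heart array and 0.95 without the WT thymus array. The Ccl12 call was also lost with scaling to the same median (0.98) and with repeated quantile scaling (0.92). On every array Ccl12 lay below the median level of all genes. Ccl2 (5.72 to 6.87) and Ccl7 (5.84 to 6.94) were called in no tissue.

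Ccl22, which with Ccl17 binds Ccr4 and is made by thymic medulla and dendritic cells, read 7.85, 8.21 and 7.06 on the p53-/-, p66-/- and WT thymus arrays and between 5.99 and 6.41 elsewhere (difference 1.50 ± 0.17, SE, adjusted p = 6.57e-05). Ccl17 was also highest in thymus, at 7.21, 7.69 and 7.09, but was not called. Ccl11 (eotaxin), a ligand of Ccr3 on eosinophils, read 6.36, 6.80 and 7.16 in thymus. Its thymus difference of 1.03 was 0.76 without the WT thymus array and 0.97 without the WT lung array. In liver Ccl11 read 5.34, 5.13 and 5.06, below every other array (difference -1.10 ± 0.18, adjusted p = 0.000699). Like Ccl12, Ccl11 lay below the median level of all genes on every array. The remaining ligands of lymphocytes and mucosa, Ccl1, Ccl20 and Ccl28, were called in no tissue, although Ccl28 varied by 3.63 over the arrays through 1 of them, WT thymus.

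Set side by side, ligand and receptor did not always share a tissue. Cxcr4 was graded from thymus to liver, while its ligand Cxcl12 was high in both of these tissues by the probe set used here. Cxcr5, the receptor of follicular B cells, lay between 4.75 and 5.88, and its ligand Cxcl13 between 7.36 and 8.66 by the probe set used. Ccr6, the receptor of Ccl20, lay between 6.32 and 7.85, and Ccl20 between 7.52 and 8.26. Ccr8 (4.95 to 6.0) and its ligand Ccl1 (5.91 to 6.91), and Ccr3 (4.72 to 5.46) and its ligand Ccl24 (7.0 to 7.99), were likewise called in no tissue. Ccl11, also a ligand of Ccr3, was called higher in thymus (1.03) and lower in liver (-1.10), as given above.

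Against WT, the knock-outs differed in thymus more than elsewhere. In p53-/- thymus 7 members were at least 2-fold higher and 5 lower, where 8.89% of all genes were that much higher and 4.81% lower. In p66-/- thymus 8 members were higher and 3 lower (all genes, 12.7% and 4.78%). The median difference over the 42 members was 0.06 in p53-/- and -0.03 in p66-/- thymus, against -0.01 and -0.03 over all genes. Both counts use the same WT thymus array, so that they are not independent. With the other knock-out array in place of WT, each count fell to 1. WT thymus correlated less with p53-/- (0.92) and p66-/- thymus (0.916) than these did with each other (0.98). It also carried the salivary gland markers (mean 13.90, against 5.05 in p53-/- and 5.12 in p66-/- thymus). The part of these transcripts in the thymus differences below, for higher as for lower members, was not tested. The members that were higher on both knock-out arrays numbered 6 (7.38% of all genes), and those lower on both 3 (2.91%).

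The members higher in thymus included receptors of thymocytes and ligands of T cells. Ccr9 was higher by 2.02 in p53-/- and by 1.45 in p66-/- thymus, from the values given above. Cxcr4 was higher by 1.81 and 1.40, and Ccr7 by 1.34 and 1.23, in p53-/- and p66-/- thymus. By the probe sets used, all 3 receptors thus lay at least 2-fold above WT on both knock-out arrays. The other Ccr9 probe sets gave 1.90, 1.27, 0.40 and 0.23 in p53-/- and 1.55, 1.18, 0.88 and 1.25 in p66-/- thymus. Thymocyte markers moved with the receptors: 8 of 12 were at least 2-fold higher on each knock-out array, with medians of 1.53 and 1.26 in p53-/- and p66-/-. The mean level of these markers was 11.36 and 11.15 against 9.96 in WT thymus. The part of this in the receptor differences was not tested. Cyclic loess scaling within the tissue gave 0.59 for Ccr9, 0.57 for Cxcr4 and 0.88 for Ccr7 in p66-/- thymus, and repeated quantile scaling 0.81, 0.78 and 0.98. Cxcr6, a receptor of effector and natural killer T cells, read 7.16 in p53-/-, 6.21 in p66-/- and 5.42 in WT thymus, which placed it 1.74 and 0.78 above WT. By its second probe set Cxcr6 was only 0.29 and 0.21 above WT.

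Among the ligands, Cxcl10 was higher by 1.49 in p53-/- and by 1.95 in p66-/- thymus, Cxcl11 by 1.04 and 1.39, and Cxcl9 by 0.34 and 0.86. The 3 ligands of Cxcr3 therefore kept the same order on both arrays, whereas Cxcr3 was higher by only 0.38 and 0.39. With the mean of its probe sets Cxcl11 was higher by 0.56 and 0.81. Ccl5 was higher by 1.27 and 1.50, and with cyclic loess by 0.69 and 0.73. Cxcl12 was higher by 0.99 and 1.73, with 0.90 in p66-/- thymus under cyclic loess, and Ccl22 by 0.79 and 1.15. Thymic epithelial markers, of the cells that make several of these ligands, had 4 of 9 at least 2-fold higher on each knock-out array (medians 0.54 and 0.91), and their part in the ligand levels was not tested.

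**Figure D3:**
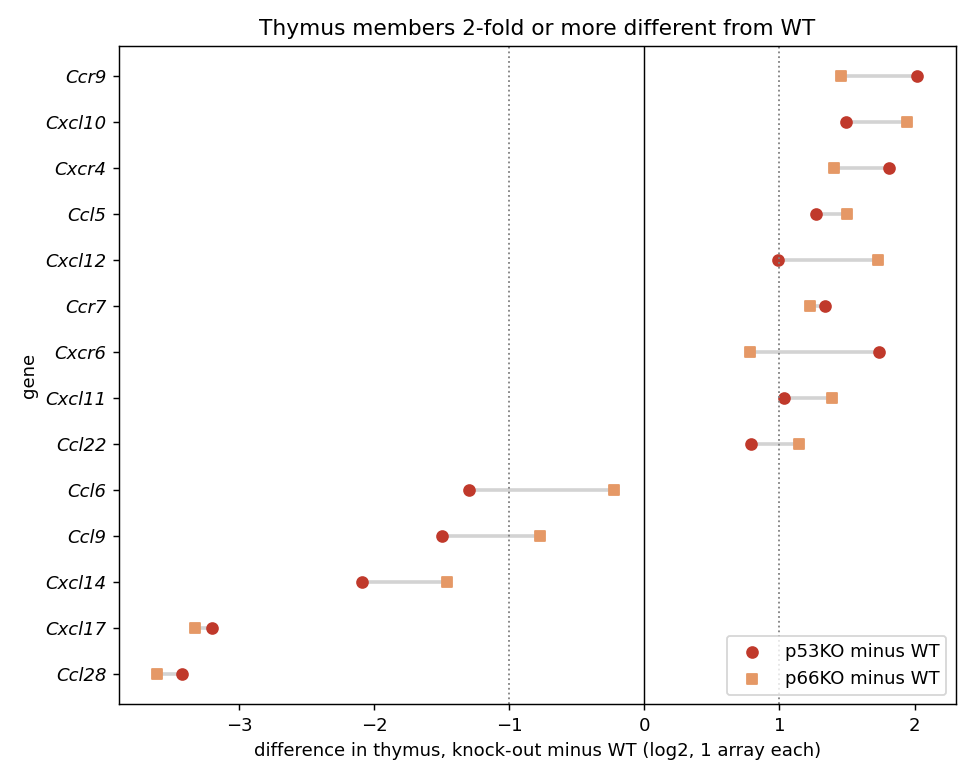
Difference in thymus, knock-out minus WT (log2, 1 array each), for the 14 members at least 2-fold different in either knock-out, with p53KO as circles and p66KO as squares and dotted lines at 2-fold. Ccl28, Cxcl17 and Cxcl14 lie lowest in both, Ccr9 (2.02) lies highest in p53KO and Cxcl10 (1.95) in p66KO, and Ccl6 is the member where the 2 knock-outs lie farthest apart.

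3 epithelial chemokines were far lower in both knock-out thymus pools. Ccl28, a ligand of Ccr10 made by mucosal and gland epithelia, read 6.53 in p53-/-, 6.34 in p66-/- and 9.95 in WT thymus. On the 9 arrays of the other tissues it lay between 6.32 and 6.75, so that the WT thymus array alone was high, and the differences were -3.42 and -3.61. Its other probe sets gave -4.23 and -1.55 in p53-/- and -4.07 and -1.67 in p66-/- thymus. Cxcl17, a mucosal chemokine, read 7.96, 7.83 and 11.15 on the p53-/-, p66-/- and WT thymus arrays (differences -3.20 and -3.32). Lung came next, at 9.22, 9.33 and 9.73 on the p53-/-, p66-/- and WT arrays. With the WT thymus array left out, limma called Cxcl17 higher in lung (1.25, adjusted p = 2.6e-05). Cxcl14 read 6.70, 7.33 and 8.79 (differences -2.09 and -1.46), and by its second probe set the differences were -2.68 and -2.39. That probe set was also lower in p66-/- heart (-1.30) and p66-/- liver (-1.62), where the one used gave -0.85 and 0.12. All 13 salivary gland markers were lower on the same 2 arrays, with medians of -8.86 in p53-/- and -8.95 in p66-/- thymus, and their part in these 3 differences was not tested. Ccr10 did not follow its ligand, at 6.38, 6.15 and 6.37 on the p53-/-, p66-/- and WT thymus arrays.

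Between the knock-outs, 1 member differed by 2-fold or more in thymus, where 1.8% of all genes did. Ccl6 read 6.99 in p53-/- and 8.06 in p66-/- thymus, a difference of -1.07, and 8.29 in WT thymus. Its second probe set did not show this gap, with -1.17 in p53-/- and -1.31 in p66-/- against WT. In lung the 1 member was Ccr9, at 4.54 in p53-/- and 5.92 in p66-/- (-1.38, with 3.38% of all genes that different). Heart and liver had none (all genes, 0.286% and 0.214%).

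In lung, none of the members was 2-fold different in p53-/- (4.76% of all genes were), and 2 were higher in p66-/- (0.341% of all genes were). Ccr9 read 5.92 in p66-/- lung and 4.47 in WT lung, a difference of 1.45. On the same array 6 of 12 thymocyte markers were at least 2-fold higher than in WT, led by Rag1 (3.36), with a median of 1.20, and their part in the Ccr9 value was not tested. With the mean of all Ccr9 probe sets the difference was 0.73. Ccl8 read 7.83 in p66-/- and 6.81 in WT lung, a difference of 1.03 that was 0.90 after repeated quantile scaling. In p53-/- lung Ccl8 read 7.54.

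In heart, Ccl6 and Cxcl12 were lower in both knock-outs, where 2.08% of all genes were at least 2-fold lower in p53-/- and 1.67% in p66-/-, and 0.852% in both. Ccl6 read 8.08 in p53-/-, 7.39 in p66-/- and 9.69 in WT heart, differences of -1.61 and -2.30, and its second probe set gave -0.91 and -1.29. Cxcl12 read 7.74, 7.76 and 8.84 (differences -1.10 and -1.08). The second Cxcl12 probe set read 9.52, 9.06 and 9.47 on the same arrays, and the mean of all its probe sets gave -0.06 and -0.39. Of 14 macrophage and monocyte markers, 1 was at least 2-fold lower in p53-/- and 5 in p66-/- heart (medians -0.35 and -0.79), led in p66-/- by Cd163 (-1.66). Of 11 neutrophil markers S100a8, S100a9 and Lcn2 were at least 2-fold lower on each, but the medians were 0.17 and 0.27. Salivary gland markers were also lower in heart, 10 of 13 in p53-/- and 6 of 13 in p66-/-, and none of these lists was tested for its part in the 2 members. In liver no member was 2-fold different in p53-/- (0.511% of all genes) or in p66-/- (0.385%), with extremes of -0.76 for Ccl6 and 0.79 for Cxcl14, both in p53-/-.

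**Figure D4:**
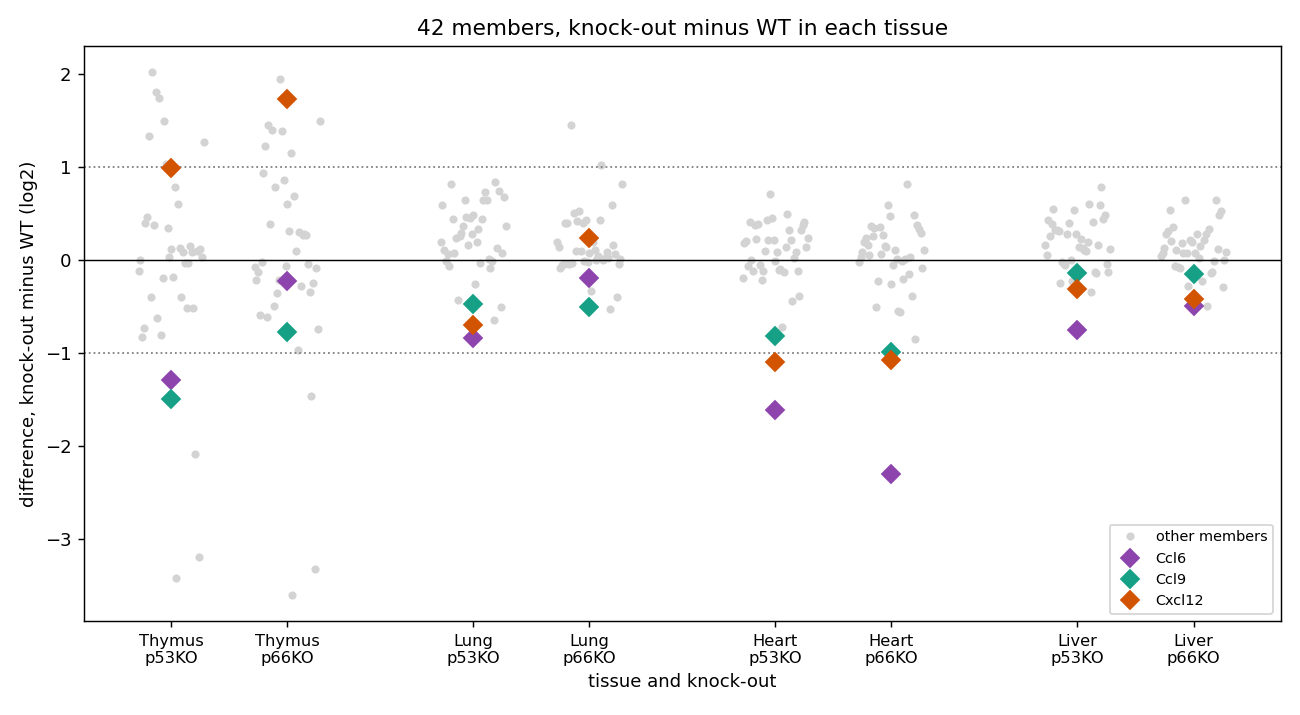
Difference of each of the 42 members, knock-out minus WT (log2), by tissue and knock-out, with dotted lines at 2-fold. Ccl6 and Ccl9 (diamonds) lie below 0 in all 8 columns, from -2.30 to -0.20 for Ccl6 and from -1.50 to -0.14 for Ccl9, while Cxcl12 lies above 0 in thymus and p66KO lung and below 0 elsewhere.

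Over the 4 tissues together, limma with tissue as a block called none of the 42 members in either knock-out (adjusted p under 0.05), where 0.0055% and 0.0% of all genes were called in p53-/- and p66-/-. At an unadjusted p under 0.05 there were 7 members in p53-/- and 8 in p66-/-, against 10.3% and 3.94% of all genes. The lowest p in p53-/- belonged to Ccl6, lower by a mean of 1.13 ± 0.31 (-1.13, SE, adjusted p = 0.304), followed by Ccl9 (-0.73 ± 0.21, adjusted p = 0.304). Ccl6 averaged 8.05 in p53-/-, 8.37 in p66-/- and 9.17 in WT, and Ccl9 averaged 8.95, 9.07 and 9.68. Both were lower in all 4 tissues in each knock-out, with values of -0.81 ± 0.31 for Ccl6 and -0.61 ± 0.21 for Ccl9 in p66-/- (adjusted p = 1.0 for both). The second Ccl9 probe set was not lower throughout, at 1.04 in p53-/- and 0.13 in p66-/- lung, and over the 4 tissues it gave 0.06 in p53-/-. In p53-/- thymus the probe set used gave -1.50 and the second -0.84. By the probe set used, Cxcl9 was higher in all 4 tissues in each knock-out, by 0.45 ± 0.15 in p53-/- (adjusted p = 0.369) and by 0.52 ± 0.15 in p66-/- (adjusted p = 1.0). The second Cxcl9 probe set was not higher in lung, at -0.11 in p53-/- and -0.05 in p66-/-. Next by p came Ccr7 (0.59) and Ccr4 (0.32) in p53-/-, and Ccr6 (0.51) and Ccl5 (0.63) in p66-/-, with adjusted p from 0.409 to 1.0. The tissues are the only repeats of a genotype in this fit, and the spread includes differences that vary between them.

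As for Cxcl12 above, the choice of probe set decided what was seen for some other members. The Cxcl1 probe set used here ends in _x_at, which can bind related transcripts, and stayed between 8.75 and 9.45. A second Cxcl1 probe set read 6.61 in p53-/-, 5.90 in p66-/- and 8.94 in WT liver, differences of -2.32 and -3.04, and between 5.02 and 5.88 on the 9 other arrays. The WT liver array alone was high by this probe set. Of 11 neutrophil markers 3 were at least 2-fold lower in both knock-out livers, Lcn2 (-5.62 and -5.98 in p53-/- and p66-/-), S100a8 (-1.95 and -1.25) and S100a9 (-1.23 and -1.09). The medians of the list were 0.15 and 0.13, and the other 8 markers lay between -0.04 and 0.52. The part of these markers in the Cxcl1 values was not tested. For Cxcl13, the B cell attractant of lymphoid follicles, a second probe set read 6.5 in p53-/-, 8.50 in p66-/- and 6.71 in WT thymus, and 6.91 in p53-/-, 9.05 in p66-/- and 6.80 in WT lung. The probe set used gave 8.23 and 8.12 on those p66-/- arrays, against 8.57 and 7.53 in WT. In heart the second Cxcl13 probe set read 5.20 in p53-/-, 5.83 in p66-/- and 6.85 in WT, differences of -1.65 and -1.01. The probe set used gave -0.11 and 0.49 there. In p66-/- lung 4 of 10 markers of B cells and plasma cells were at least 2-fold higher than in WT (median 0.64), and their part was not tested. A second probe set of Ccr2, the monocyte receptor, read 6.58, 6.80 and 7.0 on the p53-/-, p66-/- and WT lung arrays, above 5.19 to 5.99 in the other tissues, while the one used lay between 8.29 and 9.12. The second Cxcl16 probe set read 8.49, 8.57 and 8.79 on the p53-/-, p66-/- and WT lung arrays and between 6.48 and 6.81 in heart and liver, so that heart lay nearer to liver than by the one used.

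**Figure D5:**
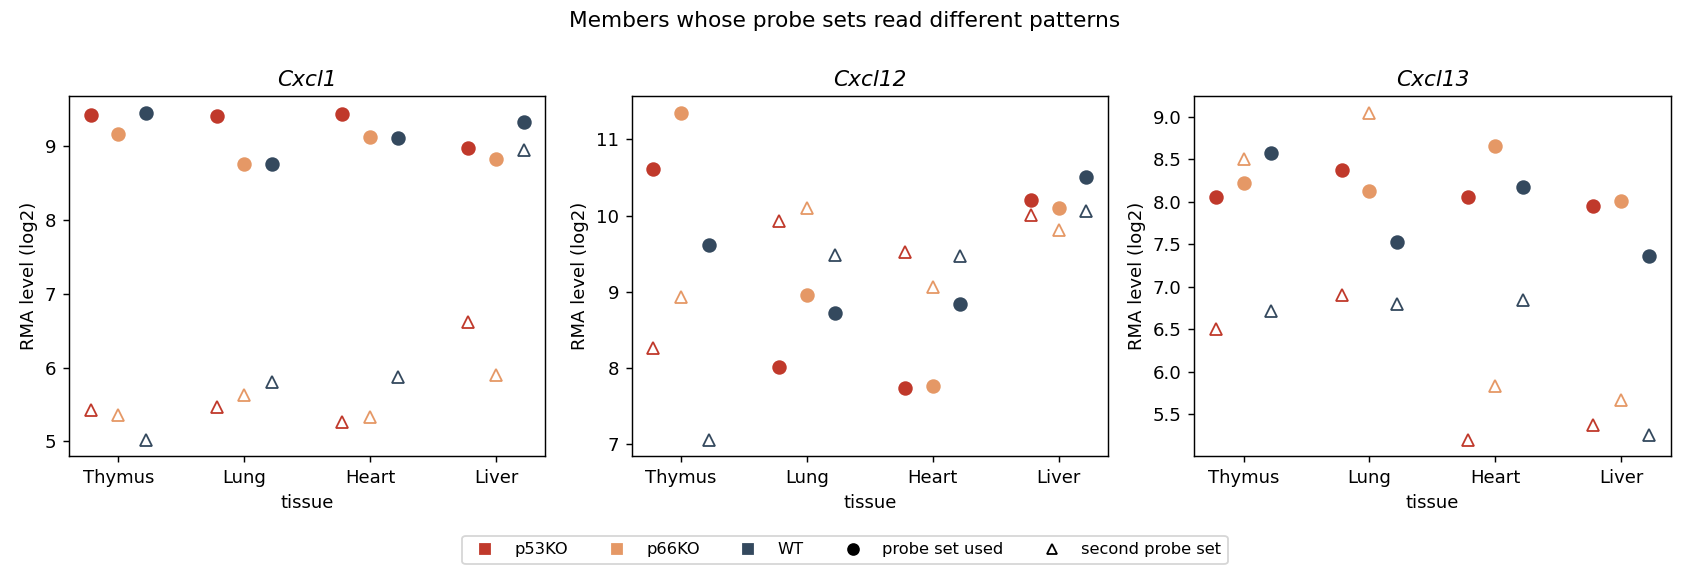
RMA level (log2) of Cxcl1, Cxcl12 and Cxcl13 by tissue and genotype (p53KO, p66KO and WT from left to right), with the probe set used as filled circles and a second probe set as open triangles. The second Cxcl1 probe set is high on the WT liver array (8.94), and the second Cxcl12 probe set is lowest in thymus. The second Cxcl13 probe set is high in p66KO thymus and lung, and in heart it is highest in WT.

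Other genes of the chemokine system differed by list. Of 20 signalling genes below the receptors, 9 were called higher and 1 lower in thymus (all genes, 7.11% and 8.56%), and 9 were called lower in liver (8.75%). In thymus 10 of them were at least 2-fold higher in p53-/- and 9 in p66-/- (all genes, 8.89% and 12.7%), with medians of 0.85 and 0.88. Rac2, a GTPase of leukocyte migration, read 12.48 in p53-/-, 12.40 in p66-/- and 10.67 in WT thymus, and Pik3r5, a subunit of the G protein-activated kinase, read 8.53, 8.78 and 6.74. Of 16 NF-kB and interferon regulators and cytokines, 1 was 2-fold higher in p53-/- and 3 in p66-/- thymus (all genes, 8.89% and 12.7%), with Tnfaip3 at 1.59 and 1.50. Of 9 atypical and other receptors, none was called higher and 1 lower in thymus (all genes, 7.11% and 8.56%), and 2 higher in lung (9.25%). Among them Ackr3, a scavenger of Cxcl12, read 5.04 in p53-/-, 6.42 in p66-/- and 6.78 in WT thymus, and between 8.96 and 9.80 in lung and heart. Of 5 other chemokines none was called in thymus. The platelet product Pf4 was the only one 2-fold different from WT there, by -1.13 in p53-/- and -1.22 in p66-/- (4.81% and 4.78% of all genes were that much lower).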

How the data were processed

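Total RNA pools were hybridised to Affymetrix Mouse Genome arrays by the study. The deposited values are log2 levels per probe set, which the authors made with RMA in Partek 6.5, which corrects background, equalises the distributions of the arrays and summarises probes by median polish. They were used as deposited, with no further scaling. Of 45101 probe sets, 64 controls were set aside. 34945 carried 1 gene symbol in the platform annotation, 932 several and 9160 none here, which gave 18193 genes by the probe set of highest mean over 12 arrays. Groups came from the sample labels.

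Within a tissue the WT array was subtracted from the knock-out array, with no test. limma 3.58.1 (R 4.3.3), on all genes, compared each tissue with the mean of the other 3 (genotype as block) and each knock-out with WT (tissue as block), with Benjamini-Hochberg adjustment at 0.05, and was tested on simulated data. The 3 arrays of a tissue are of different genotypes, and the tissues of a genotype may come from the same mice. Named members were, in each tissue, the 6 highest and 3 lowest called, those 2-fold different from WT, the 5 of lowest p over the tissues, and known ligand and receptor pairs; Ccl11 and some second probe sets were named after their values were seen. The members and lists were chosen with earlier results of these data known. Alternatives were scaling, probe set choice, filters, the fit and arrays left out. The number of arrays limits the precision. Python 3.11.15, numpy 2.4.6, pandas 2.3.3 and matplotlib 3.10.9 were used. Promoters came from RefSeq, GRCm38.p6.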

Additional observations from a re-analysis of the deposited data

How the results depend on the processing

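Over the 4 tissues no alternative and no tissue left out called a member in either knock-out (range 0 to 0). Counts of called members per tissue ranged from 12 to 16 in thymus, 5 to 8 in lung, 5 to 6 in heart and 9 to 12 in liver with 1 array left out. By the adjusted p alone, lung had 15 members in place of 7 and heart 13 in place of 6, and lung had 11 by the probe set of largest spread, an alternative chosen after seeing the data. With the other knock-out array in place of WT, the members 2-fold different numbered 1 in place of 12 (p53-/- thymus), 1 in place of 11 (p66-/- thymus), 1 in place of 0 (p53-/- lung), 1 in place of 2 (p66-/- lung) and 0 in place of 2 in each knock-out heart. Repeated quantile scaling gave 1 in both lung comparisons and in p66-/- heart, cyclic loess 1 in p66-/- heart, genes at or above the array median 1 in p66-/- lung, and the mean of all probe sets 1 in p53-/- heart and in each liver. Leaving out _x_at and _s_at probe sets gave 1 in each liver, through Cxcl1. The probe set of largest spread gave 1 in p53-/- lung, 4 in p66-/- heart, 1 in p53-/- liver and 2 in p66-/- liver. With the mean of all probe sets the thymus difference of Cxcl12 reversed to -0.064, and with the probe set of largest spread that of Ccl9 in p53-/- over the 4 tissues to 0.064. Of 1099 values of single members under an alternative, 1017 stayed, 60 lost the call, 20 crossed 2-fold and these 2 reversed. These values cover members called or 2-fold different and the 5 of lowest p over the tissues. Some of the 1017 could not have changed. Only 15 members had several probe sets, so that averaging or choosing among probe sets left the differences of all others as they were. Only 1 member was read by a probe set ending in _x_at or _s_at. Over the 4 tissues no member was called, so that no call could be lost there. The 1017 is therefore no measure of robustness. Among members below 2-fold, Cxcl13 also turned sign with its second probe set, with -1.01 in place of 0.49 in p66-/- heart and 1.79 in place of -0.34 in p66-/- thymus. Scaling to the same median kept 34 of the 39 tissue calls, and repeated quantile scaling 37. The cause was not tested where no other value shows it. The fits paired arrays by tissue or by genotype. No paired analysis was possible by replicate number because each tissue and genotype had 1 array and the labels carry no such numbers.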
